A study of Mus musculus with 6 samples.

Results

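The contractile and pericyte genes described here are 10 of the 25239 genes in a count table of mouse ovary, taken by their symbols. The contractile genes are Acta2, Actg2, Myh11, Tagln, Cnn1 and Des, and the pericyte markers are Pdgfrb, Mcam, Cspg4 and Rgs5. The RNA came from E18.5 ovaries of C57BL/6 mice, in 3 libraries labelled Hnrnpl-null and 3 labelled WT. Hnrnpl encodes an RNA-binding protein that regulates splicing, and the Hnrnpl-null libraries are titled CKO, an abbreviation left unexplained there. The ovaries were dissociated with Liberase and DNase, and the labels name the cell type oocyte, with no sort that would remove somatic cells and no statement of the cells or exons in which Hnrnpl was deleted. No label ties the libraries to separate animals, and p-values therefore measure only the spread between these libraries, part of which may be technical.

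Smooth muscle cells contract when myosin II filaments pull on actin filaments, a step set off by phosphorylation of the myosin light chain and tuned by actin-binding proteins such as calponin. Transcription of the contractile genes is driven by serum response factor (SRF), which binds a promoter element called the CArG box, with its coactivators of the myocardin family. Pericytes share parts of this programme. They sit on the outer wall of capillaries, and endothelial PDGF-B recruits them through the receptor PDGFR-beta. In the ovary, contractile cells are found in vessel walls and, later, in the theca of growing follicles.

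Some facts of the libraries touch every value below. Hnrnpl itself was at 166, 173 and 213 CPM in Hnrnpl-null replicates 1 to 3 and 172, 169 and 145 CPM in WT replicates 1 to 3, so its summed count did not separate the groups (edgeR adjusted p = 0.50) and does not check the labels. The precursor of ribosomal RNA, Rn45s, made up 86.1% of Hnrnpl-null replicate 3 and 83% of WT replicate 1, against 18.6% to 36% of the other 4 libraries. The 10 genes together had 802 counts in Hnrnpl-null replicate 3 and 1792 in WT replicate 1, against 3071 to 6318 in the other libraries. Both Rn45s-rich libraries also stood apart from their groups, Hnrnpl-null replicate 3 on the first principal component and WT replicate 1 on the second. Levels are counts scaled to a common TMM-adjusted library size (CPM), fold changes are Hnrnpl-null over WT, and tests are edgeR's quasi-likelihood test with Benjamini-Hochberg adjustment over all 14849 genes tested.

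Among the 10 genes, Des rose in the Hnrnpl-null libraries and the other 9 did not pass the test. The contractile genes pointed in different directions: Des, Tagln and Cnn1 had ratios above 1, and Myh11, Acta2 and Actg2 had ratios below 1. The fitted ratios of the 4 pericyte markers lay between 0.787 and 1.14, each with an interval that includes 1. The call of 1 gene in 10 stands against 4.46% of all tested genes called in either direction (2.67% called higher). For calls of a lower level the background was 1.79%, and none of the 10 was called lower. Groups did not overlap for 3 of the 10 genes, close to the 25.6% of all tested genes with separate groups (12.4% higher and 13.2% lower in Hnrnpl-null), and 4 of the 10 had an unadjusted p below 0.05, as did 2746 of the 14849. DESeq2 called 1 of the 10 and limma-voom 3, where they called 6.58% and 8.57% of the genes they tested. The median log2 fold change of the 10 was -0.05, with 5 positive, against -0.01 over all tested genes, of which 48.8% were positive.

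**Figure D1:**
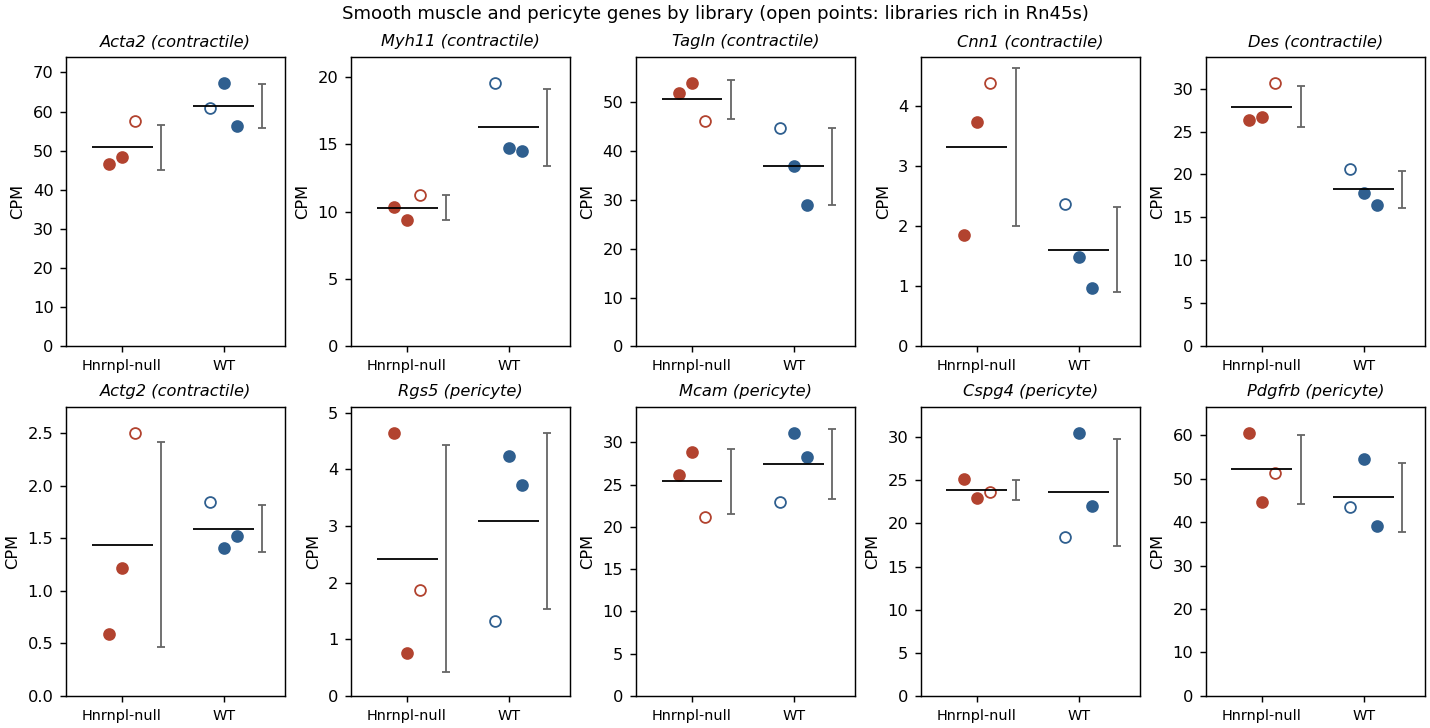
CPM of each gene (vertical axes from 0) in the 3 Hnrnpl-null libraries (left, red) and the 3 WT libraries (right, blue), with the mean (bar) and SD (whisker) and open points for the Rn45s-rich libraries. Des, Tagln and Myh11 have groups that do not overlap, the Hnrnpl-null points lying above WT for Des and Tagln and below WT for Myh11.

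Levels were compared between genes as CPM per kilobase of exonic length. Tagln and Acta2 were the most abundant of the 10, at 32.0 ± 2.52 and 19.8 ± 2.27 CPM per kilobase in Hnrnpl-null and 23.2 ± 5.02 and 23.9 ± 2.15 CPM per kilobase in WT (SD, n = 3 each). Tagln exceeded Acta2 in all 3 Hnrnpl-null libraries on this scale (29.2 to 34.0 against 18.1 to 22.4), whereas in WT the ranges overlapped (18.2 to 28.2 against 21.9 to 26.1). Mcam, Pdgfrb and Des formed a middle group, at 8.77 ± 1.32, 9.64 ± 1.46 and 9.09 ± 0.788 CPM per kilobase in Hnrnpl-null and 9.50 ± 1.44, 8.44 ± 1.45 and 5.95 ± 0.689 in WT, where neighbours in Hnrnpl-null differed by less than their SDs. Cspg4 followed at 2.98 ± 0.144 CPM per kilobase in Hnrnpl-null and 2.94 ± 0.771 in WT. Myh11, Cnn1, Actg2 and Rgs5 were at 0.533 to 1.67 CPM per kilobase in Hnrnpl-null and 0.680 to 2.44 in WT. Rgs5 stood at the 12.8th percentile of the tested genes by level and Tagln at the 95th.

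Of the actins, Acta2 encodes the alpha actin of smooth muscle thin filaments (chromosome 19, 34240336 to 34255373, minus strand, mm10). Its level was 46.6, 48.4 and 57.5 CPM in Hnrnpl-null replicates 1 to 3 and 60.9, 67.2 and 56.2 CPM in WT replicates 1 to 3. The groups overlapped in 1 pair, because the Rn45s-rich Hnrnpl-null replicate 3 lay above WT replicate 3. The gene was not called, its ratio being 0.820 (95% interval 0.680 to 0.988; log2 fold change -0.29 ± 0.13 SE, edgeR adjusted p = 0.24). Actg2, the gamma actin of visceral smooth muscle (chromosome 6, 83512909 to 83536251, minus strand), was near the detection limit, with 14, 32 and 8 counts in Hnrnpl-null replicates 1 to 3 and 14, 34 and 22 counts in WT replicates 1 to 3. These counts equal 0.590, 1.22 and 2.50 CPM in Hnrnpl-null and 1.84, 1.41 and 1.52 CPM in WT, and the interval of the ratio, 0.297 to 2.07, leaves both a fall and a rise possible. Actins are a family of near-identical proteins, so reads could be split between copies. Of the 50-base words of the longest GENCODE vM21 coding transcript of Acta2, 0.352% were shared with a transcript of another gene, and of those of Actg2 none were.

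Myh11, the myosin heavy chain of smooth muscle (chromosome 16, 14194527 to 14291408, minus strand), had separate groups. It was at 10.3, 9.37 and 11.2 CPM in Hnrnpl-null replicates 1 to 3 and 19.5, 14.7 and 14.5 CPM in WT replicates 1 to 3. All 3 Hnrnpl-null libraries lay below the lowest WT library, and the Rn45s-rich WT replicate 1 was the highest. The ratio was 0.631 (95% interval 0.472 to 0.844), but the edgeR adjusted p was 0.075 (log2 fold change -0.66 ± 0.19 SE). limma-voom alone called it (adjusted p = 0.034, of a range of 0.034 to 1 over 19 alternatives), and without WT replicate 1 the log2 fold change was -0.52 (edgeR adjusted p = 0.27).

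Tagln encodes transgelin, an actin-binding protein of the calponin family and an early smooth muscle marker (chromosome 9, 45929628 to 45936058, minus strand). It was at 51.9, 53.9 and 46.2 CPM in Hnrnpl-null replicates 1 to 3 and 44.8, 36.9 and 28.9 CPM in WT replicates 1 to 3. The groups did not overlap, with the Rn45s-rich libraries the closest pair. The ratio was 1.39 (95% interval 1.11 to 1.75), with an edgeR adjusted p of 0.10 and a log2 fold change of 0.48 ± 0.15 (SE). Without both Rn45s-rich libraries the log2 fold change was 0.69 and the gene was called (edgeR adjusted p = 0.0096, of a range of 0.0096 to 1 over the alternatives). Its exons overlap those of Pcsk7 on the opposite strand over 95 bases (5.99% of its exonic length), and with no stated strand setting reads there cannot be told apart. Cnn1, calponin, which binds actin and slows the myosin ATPase (chromosome 9, 22099253 to 22109221, plus strand), had 44, 98 and 14 counts in the Hnrnpl-null replicates and 18, 36 and 14 counts in WT replicates 1 to 3. That is 1.85, 3.73 and 4.37 CPM in Hnrnpl-null and 2.37, 1.49 and 0.965 CPM in WT, with overlapping groups. Its ratio of 2.03 was the highest of the 10, but the interval ran from 0.932 to 4.44 (edgeR adjusted p = 0.32).

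Des, which encodes the intermediate filament protein desmin of all muscle types and of pericytes (chromosome 1, 75360292 to 75368579, plus strand), was the gene that rose. It was at 26.3, 26.7 and 30.6 CPM in Hnrnpl-null replicates 1 to 3 and 20.6, 17.8 and 16.4 CPM in WT replicates 1 to 3. Every Hnrnpl-null library lay above every WT library, and the means were 27.8 ± 2.41 CPM in Hnrnpl-null and 18.2 ± 2.11 CPM in WT (SD, n = 3 each). The ratio was 1.52 (95% interval 1.21 to 1.90) and the log2 fold change 0.60 ± 0.15 (SE, edgeR adjusted p = 0.039). Its log2 fold change was 0.63 without both Rn45s-rich libraries (edgeR adjusted p = 0.035), and 0.54 to 0.69 when any 1 library was left out. The call was lost in each of those 6 fits (edgeR adjusted p of 0.056 to 0.15), and over all 19 alternatives the adjusted p ran from 0.016 to 1, the highest with library totals alone, where the Rn45s share sets the scale. The exons of Des overlap those of Gm15179 on the opposite strand over 222 bases (7.24% of its exonic length). The strand setting is not stated, and Gm15179 had 0 to 4 counts per library.

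**Figure D2:**
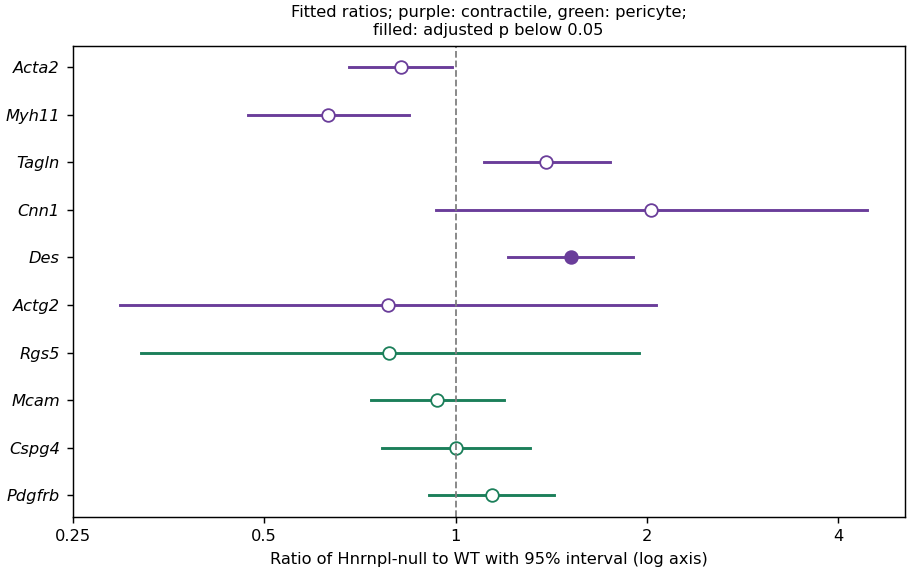
Fitted ratio of Hnrnpl-null to WT (log axis) with its 95% interval for the 6 contractile genes (purple) and the 4 pericyte genes (green), filled where the adjusted p was below 0.05. The intervals of Des (1.21 to 1.90) and Tagln (1.11 to 1.75) lie above 1. Those of Myh11 (0.472 to 0.844) and Acta2 (0.680 to 0.988) lie below it, while the 4 pericyte intervals span 1.

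The unequal change within the contractile genes can be read as ratios inside a library, which no scaling between libraries affects. Acta2 over Des was 1.77, 1.82 and 1.88 in Hnrnpl-null replicates 1 to 3 and 2.96, 3.78 and 3.43 in WT replicates 1 to 3. Acta2 over Tagln was 0.897, 0.897 and 1.24 in Hnrnpl-null and 1.36, 1.82 and 1.95 in WT. Neither ratio overlapped between groups. Both pairs were chosen after their values were seen, so they are descriptions with no test. The summed CPM of the 6 contractile genes overlapped between groups, at 138 to 152 in Hnrnpl-null and 118 to 150 in WT.

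**Figure D3:**
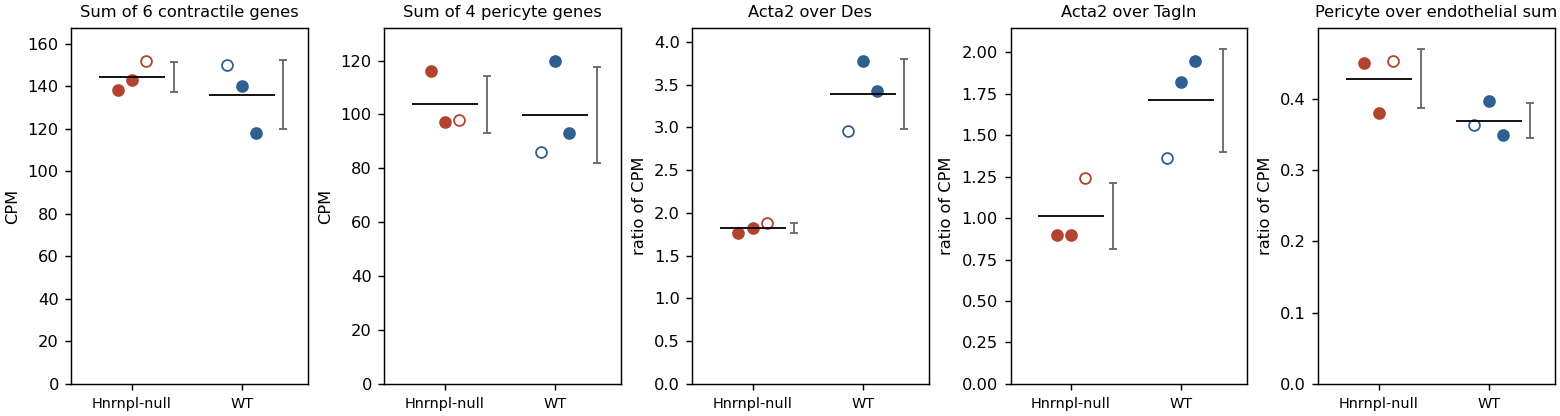
Summed CPM of the 6 contractile and the 4 pericyte genes and 3 ratios of CPM (vertical axes from 0) in the Hnrnpl-null libraries (left, red) and the WT libraries (right, blue), with the mean (bar) and SD (whisker) and open points for the Rn45s-rich libraries. The sums and the pericyte over endothelial ratio overlap between groups, whereas Acta2 over Des reaches 1.88 at most in Hnrnpl-null and 2.96 at least in WT.

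The promoter windows shown are those of Cnn1, Des and Acta2, the only contractile genes with a usable entry. They are RefSeq sequences on GRCm38.p6, from 250 bases before to 50 bases after the annotated start, and 6 of the 10 genes had an entry. Lower case is background, and capitals mark a CArG box with 1 mismatch in its A/T core or an MCAT element, the TEAD-binding word CATTCC read on either strand. The Cnn1 window is chr9:22099003-22099302 on the plus strand, the Des window is chr1:75360042-75360341 on the plus strand and the Acta2 window is chr19:34255324-34255623 on the minus strand.
Cnn1: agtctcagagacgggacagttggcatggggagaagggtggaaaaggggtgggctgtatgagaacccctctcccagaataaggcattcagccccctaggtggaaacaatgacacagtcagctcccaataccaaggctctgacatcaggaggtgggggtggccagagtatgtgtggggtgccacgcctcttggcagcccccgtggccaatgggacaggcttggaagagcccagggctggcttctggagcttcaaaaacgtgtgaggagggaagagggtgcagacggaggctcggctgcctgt
Des: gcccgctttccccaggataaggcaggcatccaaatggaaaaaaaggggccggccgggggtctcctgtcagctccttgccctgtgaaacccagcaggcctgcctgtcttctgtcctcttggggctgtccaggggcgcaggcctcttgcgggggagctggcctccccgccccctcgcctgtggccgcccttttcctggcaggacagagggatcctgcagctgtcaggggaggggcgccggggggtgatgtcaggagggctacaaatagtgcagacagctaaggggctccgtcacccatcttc
Acta2: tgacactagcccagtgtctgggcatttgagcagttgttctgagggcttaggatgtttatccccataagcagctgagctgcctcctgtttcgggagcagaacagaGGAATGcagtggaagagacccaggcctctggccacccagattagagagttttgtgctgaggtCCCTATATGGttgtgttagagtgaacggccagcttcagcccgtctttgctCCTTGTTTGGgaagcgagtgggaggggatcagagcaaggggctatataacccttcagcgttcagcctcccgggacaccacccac
A CArG box with no mismatch was in none of the 6 windows and in 1.63% of all 32851 promoter windows. A CArG box with 1 core mismatch was in the Acta2 window, with matches beginning 84 and 34 bases before the start, and in 8.5% of all windows. The MCAT word, 146 bases before the Acta2 start, was in 14.7% of all windows. The other 5 windows held neither. The TATA word TATAAA was in 0 of the 6 windows and 13.6% of all, and the E-box CANNTG was in 5 of the 6 and 72.3% of all. These are matches of letters in a short window, and known CArG boxes of such genes also lie in introns and farther upstream. The mismatched CArG box was added to the search after the windows had been seen.

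Among the pericyte markers, Pdgfrb encodes the receptor for PDGF-B on pericytes and other mesenchymal cells (chromosome 18, 61045150 to 61085067, plus strand). It was at 60.5, 44.7 and 51.2 CPM in Hnrnpl-null replicates 1 to 3 and 43.5, 54.4 and 39.1 CPM in WT replicates 1 to 3. The groups overlapped, and the ratio of 1.14 had an interval of 0.910 to 1.43 (edgeR adjusted p = 0.56). Mcam, an adhesion molecule of pericytes and endothelium (chromosome 9, 44134658 to 44142726, plus strand), was at 26.1, 28.8 and 21.2 CPM in Hnrnpl-null and 22.9, 31.1 and 28.3 CPM in WT. In both groups the Rn45s-rich library was the lowest. The ratio was 0.934 (95% interval 0.735 to 1.19, edgeR adjusted p = 0.80).

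Cspg4, a chondroitin sulfate proteoglycan on the pericyte surface (chromosome 9, 56865104 to 56899870, plus strand), was at 25.2, 22.9 and 23.7 CPM in Hnrnpl-null and 18.4, 30.5 and 22 CPM in WT. The Hnrnpl-null values lay inside the WT range, with a ratio of 1.0 (95% interval 0.767 to 1.31, edgeR adjusted p = 0.99). Rgs5, a regulator of G protein signalling enriched in mature pericytes (chromosome 1, 169655501 to 169695813, plus strand), varied more within groups than between them, at 4.64, 0.761 and 1.87 CPM in Hnrnpl-null and 1.32, 4.23 and 3.72 CPM in WT. Its counts were 110, 20 and 6 in Hnrnpl-null and 10, 102 and 54 in WT, and its interval of 0.320 to 1.94 is wide. Its log2 fold change of -0.34 became -1.55 without Hnrnpl-null replicate 1 and 0.17 without Hnrnpl-null replicate 2. None of the 4 markers was called by edgeR, by DESeq2 or by limma-voom, and 0 had an unadjusted p below 0.05. Their intervals still allow changes, of up to 1.43 for Pdgfrb and down to 0.735 for Mcam. In bulk samples, fewer cells of a type and less RNA per cell cannot be told apart.

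Other genes of the contractile apparatus also moved in both directions. Of 29 tested, 4 rose and 1 fell, where 4.46% of all tested genes were called, with 17 positive and a median log2 fold change of 0.09. Tagln2, the transgelin of non-muscle cells, rose to 44.5 ± 3.47 CPM in Hnrnpl-null, against 25.2 ± 2.46 CPM in WT (edgeR adjusted p = 0.0025), and stayed called in all 6 fits that left out 1 library. Pgm5, a phosphoglucomutase relative at adhesion plaques, rose to 39.4 ± 5.81 CPM, against 22.3 ± 2.14 CPM in WT (edgeR adjusted p = 0.0075), though 17.6% of its exonic length overlaps Tmem252 on the opposite strand. Pdlim3, a LIM protein that binds alpha-actinin, rose to 13.5 ± 2.63 CPM, against 6.71 ± 0.213 CPM in WT (edgeR adjusted p = 0.017). Csrp1, a LIM protein of smooth muscle, rose to 128 ± 1.78 CPM, against 93.4 ± 6.96 CPM in WT (edgeR adjusted p = 0.027). Tpm2, beta-tropomyosin, which lines the actin filament, fell to 7.0 ± 0.77 CPM, against 12.5 ± 0.619 CPM in WT (edgeR adjusted p = 0.035). When 1 library was left out, 1 to 4 genes of this list were higher and 0 or 1 lower. The call of Pgm5 was lost without Hnrnpl-null replicate 2 or WT replicate 2, that of Pdlim3 also without WT replicate 3, that of Csrp1 also without WT replicate 3 or Hnrnpl-null replicate 1, and that of Tpm2 in every such fit except the 1 without Hnrnpl-null replicate 3.

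Levels per kilobase varied widely within this list. Lmod1, leiomodin, was at 0.486 CPM per kilobase in Hnrnpl-null and 0.668 in WT, and Kcnmb1, a subunit of a calcium-activated potassium channel, at 0.0626 in Hnrnpl-null and 0.155 in WT. Far more abundant were Myl9 and Flna: Myl9, a myosin light chain, was at 85.2 CPM per kilobase in Hnrnpl-null and 98.4 in WT, and Flna, filamin, at 115 in Hnrnpl-null and 99.6 in WT. These 4 genes were not called and were chosen after their values were seen.

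Among 17 tested regulators of these genes, 1 rose, where 4.46% of all tested genes were called, and the median log2 fold change was -0.06. That gene was Rhoa, the GTPase that promotes actin assembly, at 127 ± 7.77 CPM in Hnrnpl-null and 95.3 ± 4.18 CPM in WT (edgeR adjusted p = 0.042), and among the 6 fits that left out 1 library it stayed called only without Hnrnpl-null replicate 3. Srf was at 53.6 ± 7.73 CPM in Hnrnpl-null and 65.2 ± 10.4 CPM in WT (edgeR adjusted p = 0.29). Myocd, which encodes myocardin, was at 14.6 ± 1.89 CPM in Hnrnpl-null and 12.3 ± 0.355 CPM in WT (edgeR adjusted p = 0.47). Neither was called, and both were named after their values were seen.

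Of 16 other pericyte and vascular mural genes tested, 1 fell, where 4.46% of all tested genes were called, and the median log2 fold change was -0.12. Gja4, which encodes the gap junction protein connexin 37 of vessels and also of oocytes, fell to 1.16 ± 0.482 CPM in Hnrnpl-null, against 5.87 ± 1.37 CPM in WT (edgeR adjusted p = 0.0061). Leaving out WT replicate 2 ended this call (edgeR adjusted p = 0.074). Notch3, the Notch receptor of mural cells, was at 56.7 ± 7.60 CPM in Hnrnpl-null and 55.3 ± 6.95 CPM in WT, and was not called. Abcc9 and Kcnj8, subunits of the pericyte ATP-sensitive potassium channel, were not called either. Notch3, Abcc9 and Kcnj8 were named after their values were seen. The other 4 genes of the list, Higd1b, Vtn, Rgs4 and Art3, were too low to be tested.

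Of the PDGF ligands and the partner receptor, 1 of 5 rose, where 4.46% of all tested genes were called. Pdgfc, a ligand of the alpha receptor, was at 46.9 ± 8.30 CPM in Hnrnpl-null and 30.6 ± 4.88 CPM in WT (edgeR adjusted p = 0.042), and it too stayed called only in the fit without Hnrnpl-null replicate 3. Pdgfb, the endothelial ligand of PDGFR-beta, was at 9.07 ± 1.36 CPM in Hnrnpl-null and 9.14 ± 0.936 CPM in WT. Pdgfrb over Pdgfb was 4.59 to 6.83 in the Hnrnpl-null libraries and 4.24 to 5.42 in the WT libraries, with overlapping ranges.

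**Figure D4:**
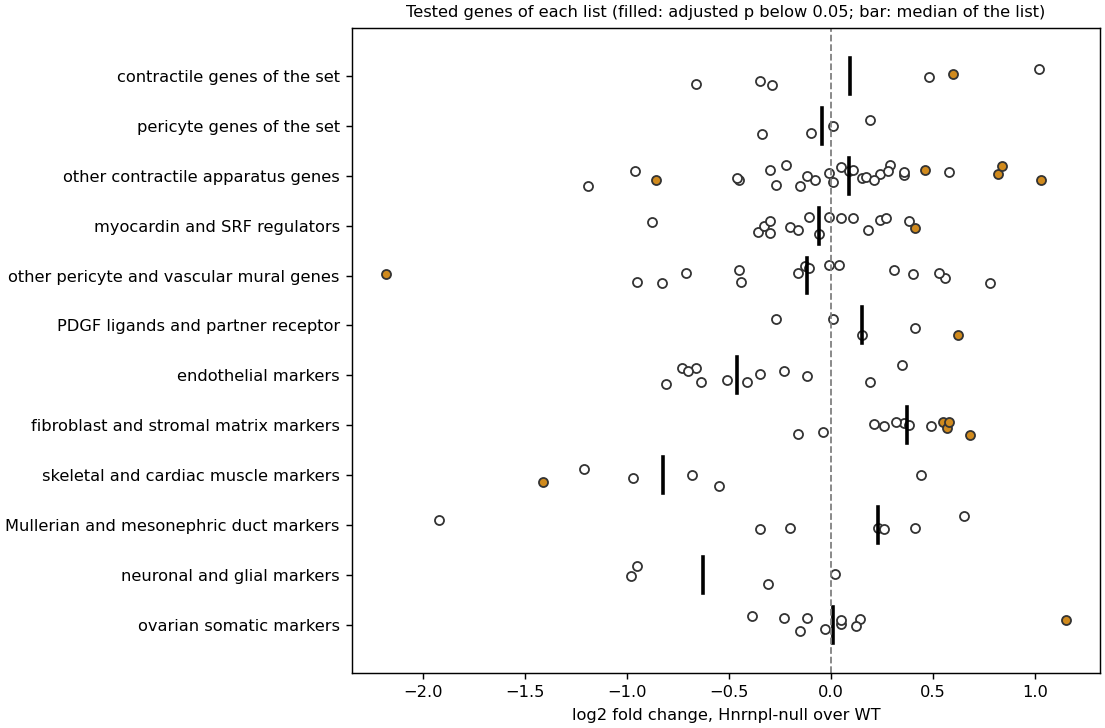
log2 fold change (Hnrnpl-null over WT, horizontal axis) of each tested gene of the lists named on the vertical axis, filled where the adjusted p was below 0.05, with the median of each list as a bar. The 6 contractile genes run from -0.66 to 1.02, and the 12 stromal matrix markers have a median of 0.37, against -0.46 for the 12 endothelial markers.

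Markers of other cells in the sample differed between the groups as follows. The calls of each list below stand against 4.46% of all tested genes called. Stromal matrix markers summed to 10300 to 11600 CPM in Hnrnpl-null and 6980 to 7480 CPM in WT, most of it from Col1a1, Col3a1 and Col1a2. Of the 12 genes of this list, 4 rose: Col1a1, Dcn, Col3a1 and Col1a2, which encode fibrillar collagens and the collagen-binding proteoglycan decorin. The log2 fold change was positive for 10 of the 12 and negative for Tcf21 (-0.16) and Nr2f2 (-0.04). Between 0 and 4 genes of the list were called when 1 library was left out, with 0 called without Hnrnpl-null replicate 2. Oocyte markers summed to 142 to 169 CPM in Hnrnpl-null and 269 to 290 CPM in WT, with 7 of 8 lower. Of 10 ovarian somatic markers only Kitl was called, higher, and the list summed to 847 to 961 CPM in Hnrnpl-null and 813 to 883 CPM in WT. These matrix genes rose and the oocyte markers fell in the same comparison of groups in which Des rose. Their part in the rise of Des was not tested.

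Endothelial markers, which pericytes accompany, summed to 216 to 258 CPM in Hnrnpl-null and 238 to 303 CPM in WT. Of 12 tested, edgeR called 0, and 5 had an unadjusted p below 0.05, as did 2746 of all 14849 tested genes. DESeq2 and limma-voom each called 2 lower and 1 higher, where they called 6.58% and 8.57% of the genes they tested. Only 2 of the 12 had a positive log2 fold change, and the median was -0.46. Kdr, a VEGF receptor, was one of these 2, at 103 ± 1.99 CPM in Hnrnpl-null and 80.8 ± 3.33 CPM in WT, and Eng, a TGF-beta coreceptor, at 28.0 ± 7.49 CPM in Hnrnpl-null and 40.7 ± 8.93 CPM in WT. The summed pericyte markers over the summed endothelial markers came to 0.381 to 0.454 in Hnrnpl-null and 0.349 to 0.397 in WT. Both sets of values overlapped between groups only with Kdr included: without it the endothelial sums were 111 to 157 CPM in Hnrnpl-null and 160 to 219 CPM in WT, and the ratios 0.635 to 0.882 in Hnrnpl-null and 0.499 to 0.549 in WT. Kdr was left out after its values were seen, so these are descriptions with no test.

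Desmin is also made by striated muscle. Of 17 striated muscle markers, Myod1 and Pax7 had no counts in any library and 6 could be tested, of which 1 fell, 0 rose and 1 had a positive log2 fold change. The list summed to 16.6 to 18.7 CPM in Hnrnpl-null and 41.1 to 43.1 CPM in WT, most of it Ttn, the giant sarcomere protein titin, which fell to 11.6 ± 0.509 CPM, against 30.9 ± 2.33 CPM in WT (edgeR adjusted p = 8.1e-05). With an exonic length of 104320 bases, Ttn was at only 0.111 CPM per kilobase in Hnrnpl-null and 0.297 in WT. The part of striated muscle in the level of Des was not tested. Duct markers summed to 47.5 to 59.4 CPM in Hnrnpl-null and 48.4 to 67.0 CPM in WT. Emx2 and Pax8 had the highest levels per kilobase, and Emx2 ran from 24.5 to 31.9 CPM over all libraries. Other duct genes were uneven. Cdh16 was at 15.5 CPM in WT replicate 2, the highest library for Acta2, Mcam and Cspg4, and at most 1.94 CPM elsewhere. Hoxa13 was at 6.87 CPM in Hnrnpl-null replicate 3 and 6.06 CPM in WT replicate 1, and at most 0.169 CPM elsewhere. Both were named after their values were seen, and uneven duct tissue was not tested. Neuronal and glial markers summed to 32.8 to 42.9 CPM in Hnrnpl-null and 41.4 to 48.3 CPM in WT. Neither edgeR nor DESeq2 nor limma-voom called a gene of either list, and 1 duct gene and 0 neuronal genes had an unadjusted p below 0.05.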

How the data were processed

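RNA from 6 mouse ovary samples was sequenced (3 labelled Hnrnpl-null, 3 WT). The authors deposited 1 table of raw counts per gene with 25239 rows; per the file headers it is a featureCounts table, with exon coordinates and exonic lengths. The submitters' processing notes name featureCounts 2.0.6, HISAT2 2.2.1, STAR 2.7.11a and build mm10, with no role for each. The annotation is not given in the sources used here, nor is the strand setting. Total counts were 8949781 to 22401419 per library, and 93.4% to 98.4% of the counts between 1 and 20 were even, as when each read pair adds 2 counts. Reads carry no molecular identifiers.

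The test was the two-sided quasi-likelihood test of edgeR 4.0.16 (R 4.3.3) after filterByExpr and TMM scaling, with genotype as the only term, with Benjamini-Hochberg adjustment over the 14849 genes that passed the filter and a call at an adjusted p below 0.05. Each of the 10 genes passed it, with libraries over its minimum in both groups. CPM were computed on the TMM-scaled library size. Standard errors and 95% intervals come from the F statistic. Alternatives were DESeq2 1.42.0, limma-voom (limma 3.58.1), other scalings and filters, robust dispersions, a stricter threshold, halved counts, no Rn45s row, and libraries left out. The genes and lists were chosen with earlier results of these data known. From each further list, up to 4 called genes with the smallest p are named, or, with none called, the 2 highest per kilobase. Other names were picked with their values in view. Protein sequences were not used here. Figures were drawn with matplotlib 3.10.9.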

Additional observations from a re-analysis of the deposited data

How the results depend on the processing

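The number of genes called out of all tested was 663, and it was 1065 with DESeq2, 1273 with limma-voom, 1104 with no low-count filter, 4 with library totals alone, 236 at an adjusted p below 0.01 and 249 to 853 when 1 library was left out. Of the 10 contractile and pericyte genes 1 was called, and 3 were with limma-voom (Des and Tagln higher, Myh11 lower), 2 with no low-count filter or without both Rn45s-rich libraries (Des and Tagln higher), 0 with library totals alone or at an adjusted p below 0.01, and 0 in each of the 6 fits that left out 1 library. The labels do not say whether the replicate number of the titles pairs the libraries. Deviations from the group means correlated at -0.12, 0.088 and -0.089 for same-numbered libraries and at -0.11 to 0.15 for the others. With 3 libraries per group these values cannot settle a pairing. With the replicate number as a block, 444 genes were called and 0 of the 10. Acta2 and Myh11 stayed below WT, and Des, Tagln, Cnn1 and Pdgfrb above it, in all 19 alternatives, though the stricter threshold reuses the main fit. Over the fits without 1 library, the log2 fold change ran from -0.79 to 0.10 for Actg2, from -1.55 to 0.17 for Rgs5, from -0.20 to 0.00 for Mcam and from -0.13 to 0.24 for Cspg4, turning without Hnrnpl-null replicate 1 (Actg2), Hnrnpl-null replicate 2 (Rgs5) and WT replicate 2 (Mcam). Cspg4 came to -0.05 with limma-voom, -0.01 with upper quartile factors or halved counts, -0.14 with library totals alone, -0.13 without both Rn45s-rich libraries or without WT replicate 1, and -0.04 without Hnrnpl-null replicate 1 or WT replicate 3. The cause was not tested. The median of all genes lay between -0.04 and 0.00 (log2) under every setting. Depth limits Actg2, Rgs5 and Cnn1 most, with 6 to 14 counts in their lowest library. Since most small counts were even, the number of read pairs behind them may be smaller.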
